A study of Mus musculus with 6 samples.

Results

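The genes examined were the ligands, receptors and TRAF adaptors of the tumour necrosis factor (TNF) family in cultured mouse fetal liver macrophages with and without Ahrr, which encodes the repressor of the aryl hydrocarbon receptor (AhR). Members were protein-coding genes whose symbol begins with Tnfrsf or Tnfsf or is a Traf gene numbered 1 to 7, together with Tnf, Lta, Ltb, Cd40, Fas, Ltbr, Ngfr, Eda2r, Cd27 and Tradd. This rule found 34 genes among the 16111 genes of the annotated table. They comprised 8 ligands, 12 receptors that bind TRAF adaptors, 4 receptors with a death domain, 3 decoy receptors and 7 adaptors. Lta, Ltb, Cd40, Ngfr, Traf1 and further ligands and receptors of the family were not analysed here.

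The wild-type group was 3 libraries from C57BL/6 RCC mice, and the Ahrr-deficient group was 3 libraries from AhRR-/- mice of the same strain. The labels give each library its own mouse number within its genotype. In both groups macrophages were taken from fetal liver at stage E13.5 and grown for 5 weeks with 2% GM-CSF, a growth factor that sustains macrophages, and the non-adherent cells were sequenced. The design of the Ahrr allele is not given in the sources used here, the loss is not stated to be limited to macrophages, and no AhR ligand is named as added.

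TNF-family ligands are mostly trimeric membrane proteins, and some are cut from the cell surface by proteases. They bind receptors with cysteine-rich outer domains. A receptor with a death domain can recruit adaptors such as TRADD and FADD and start cell death, while many of the others recruit TRAF proteins and activate NF-kB and MAP kinases. In macrophages TNF is a central product of inflammatory activation, and the cells both make and sense it through TNFR1 (Tnfrsf1a) and TNFR2 (Tnfrsf1b).

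Total counts ranged from 3556106 in Ahrr-deficient replicate 1 to 41668336 in Ahrr-deficient replicate 2. A floor of 3 counts corresponded to 0.0720 to 0.844 CPM, the counts scaled to a common library total. Ahrr itself had 4.60, 4.29 and 5.32 CPM in wild-type replicates 1, 2 and 3, and 2.25, 2.57 and 1.21 CPM in the Ahrr-deficient replicates (log2 fold change -1.21, SE 0.26, edgeR adjusted p 0.0151). Reads of the targeted gene thus remained in each Ahrr-deficient library, and its call was lost without wild-type replicate 1 (-1.29, 0.0631), without wild-type replicate 3 (-1.18, 0.0502) and after thinning to the smallest total (-1.35, 0.102). All 10 listed macrophage markers were among the genes analysed, at a summed 22312 to 27728 CPM in wild-type and 16584 to 23649 CPM in Ahrr-deficient libraries. Of these, Csf1r was lower (log2 fold change -0.65) and Itgax higher (1.70). The listed markers of other cells summed to at most 0.744 CPM for T cells (1 of 5 listed genes analysed, Lck), 2.22 CPM for neutrophils (1 of 7, S100a8), 0.864 CPM for hepatocytes (1 of 4, Afp) and 0.420 CPM for the erythroid lineage (1 of 4, Klf1). For endothelium (2 of 4, Cdh5 and Kdr) the sum was at most 0.562 CPM, and for megakaryocytes (1 of 4, Itga2b) it was 2.698 to 3.01 CPM in wild-type and 1.21 to 1.97 CPM in Ahrr-deficient libraries. For B cells, mast cells and fibroblasts 0 of 5, 0 of 6 and 0 of 4 listed genes were among those analysed. The dendritic cell list (3 of 6) summed to 57.6 to 62.1 CPM in wild-type and 72.0 to 93.2 CPM in Ahrr-deficient libraries, mostly from Clec9a, which was higher (log2 fold change 0.49). Zbtb46 and Xcr1, also of that list, did not rise. Zbtb46 had means of 5.48 CPM in wild-type and 4.43 CPM in Ahrr-deficient libraries (log2 fold change -0.32, not past the threshold), and Xcr1 of 0.291 and 0.183 CPM. The NK cell and ILC list (2 of 4) summed to 34.5 to 75.9 against 17.5 to 38.8 CPM, nearly all from Il7r, and the eosinophil list (1 of 4, Siglecf) to 27.5 to 58.8 against 54.1 to 63.3 CPM. The part of these shifts in the results below was not tested. In bulk RNA, fewer cells of a type and less RNA per cell cannot be told apart.

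Promoter sequences are shown for 4 of the 5 members that differed between the genotypes, to place these genes beside the binding motifs of AhR, NF-kB and AP-1, transcription factors active in macrophages. RefSeq promoters on GRCm38.p6, from 250 bases before to 50 after a transcription start, were matched by symbol for 28 of the 34 members. Searched on both strands were the AhR core GCGTG, the AP-1 motif TGANTCA and the NF-kB consensus. Matches are in capitals, and a palindromic match counts on both strands.
Tnfrsf9 (chr4:150927749-150928048, plus strand, the second of its listed starts): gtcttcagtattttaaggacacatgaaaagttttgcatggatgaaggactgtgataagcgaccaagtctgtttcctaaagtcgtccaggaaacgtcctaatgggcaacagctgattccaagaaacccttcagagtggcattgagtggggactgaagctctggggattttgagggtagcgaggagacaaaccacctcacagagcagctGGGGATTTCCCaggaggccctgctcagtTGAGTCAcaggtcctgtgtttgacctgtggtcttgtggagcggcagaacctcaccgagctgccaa
Tnfrsf14 (chr4:154928028-154928327, minus strand): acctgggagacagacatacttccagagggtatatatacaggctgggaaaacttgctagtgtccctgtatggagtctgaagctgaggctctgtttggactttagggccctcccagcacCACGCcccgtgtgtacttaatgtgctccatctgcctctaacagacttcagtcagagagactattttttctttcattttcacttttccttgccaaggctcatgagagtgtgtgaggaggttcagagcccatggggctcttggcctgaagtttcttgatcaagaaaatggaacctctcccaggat
Tnfrsf1b (chr4:145246821-145247120, minus strand): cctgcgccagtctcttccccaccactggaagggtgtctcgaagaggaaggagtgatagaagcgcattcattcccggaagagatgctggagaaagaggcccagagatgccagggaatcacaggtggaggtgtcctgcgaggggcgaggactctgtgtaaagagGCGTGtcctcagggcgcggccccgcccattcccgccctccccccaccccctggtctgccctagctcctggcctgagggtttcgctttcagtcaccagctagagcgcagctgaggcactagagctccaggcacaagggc
Tnf (chr17:35201958-35202257, minus strand): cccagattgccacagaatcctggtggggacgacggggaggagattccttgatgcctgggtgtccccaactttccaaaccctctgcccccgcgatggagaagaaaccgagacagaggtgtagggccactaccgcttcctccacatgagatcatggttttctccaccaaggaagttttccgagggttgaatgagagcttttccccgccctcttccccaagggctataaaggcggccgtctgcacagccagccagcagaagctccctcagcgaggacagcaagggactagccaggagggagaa

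The Tnfrsf9 promoter held overlapping NF-kB matches that began 43 and 42 bases before the start, and an AP-1 match that began 15 bases before it. The other listed start of Tnfrsf9 held none of the motifs. An AhR core began 133 bases before the start of Tnfrsf14, on the opposite strand, and 88 bases before that of Tnfrsf1b. The windows of Tnf and Tnfrsf13b held no match to these letters. Across all 32851 RefSeq promoters of this length, 32.39% held the AhR core, 8.46% the NF-kB consensus and 7.81% the AP-1 motif. Of the 30 member promoters, 13, 3 and 7 held them. Of the 28 member genes it was 13, 3 and 6, as the overlapping promoters of Tnfsf13b share an AP-1 match. These matches describe letters only, and reads counted per gene do not tell the starts of Tnfrsf9 apart.

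Levels were compared between genes as CPM per kilobase of exon. Tnfrsf1b stood first in the wild-type libraries, at 179 ± 0.95 CPM per kb (SD, n = 3), followed by Tnfrsf1a at 54.2 ± 5.3 and by Tnfrsf21, a death domain receptor, at 31.9 ± 3.2. Tnfrsf14 (23.6 ± 3.4) and Ltbr (22.7 ± 2.8), the lymphotoxin beta receptor, came next and did not differ from each other beyond their spread. In the Ahrr-deficient libraries the first places were again Tnfrsf1b (114 ± 37) and Tnfrsf1a (56.8 ± 2.0), while Tnfrsf14 (15.3 ± 2.7) lay below Ltbr (26.5 ± 4.2). Among ligands, Tnfsf12 (TWEAK) was the most abundant per length, at 18.9 ± 1.2 CPM per kb in wild-type and 16.03 ± 3.93 in Ahrr-deficient libraries. Tnf was at 0.810 ± 0.231 and 2.19 ± 0.91 CPM per kb.

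**Figure D1:**
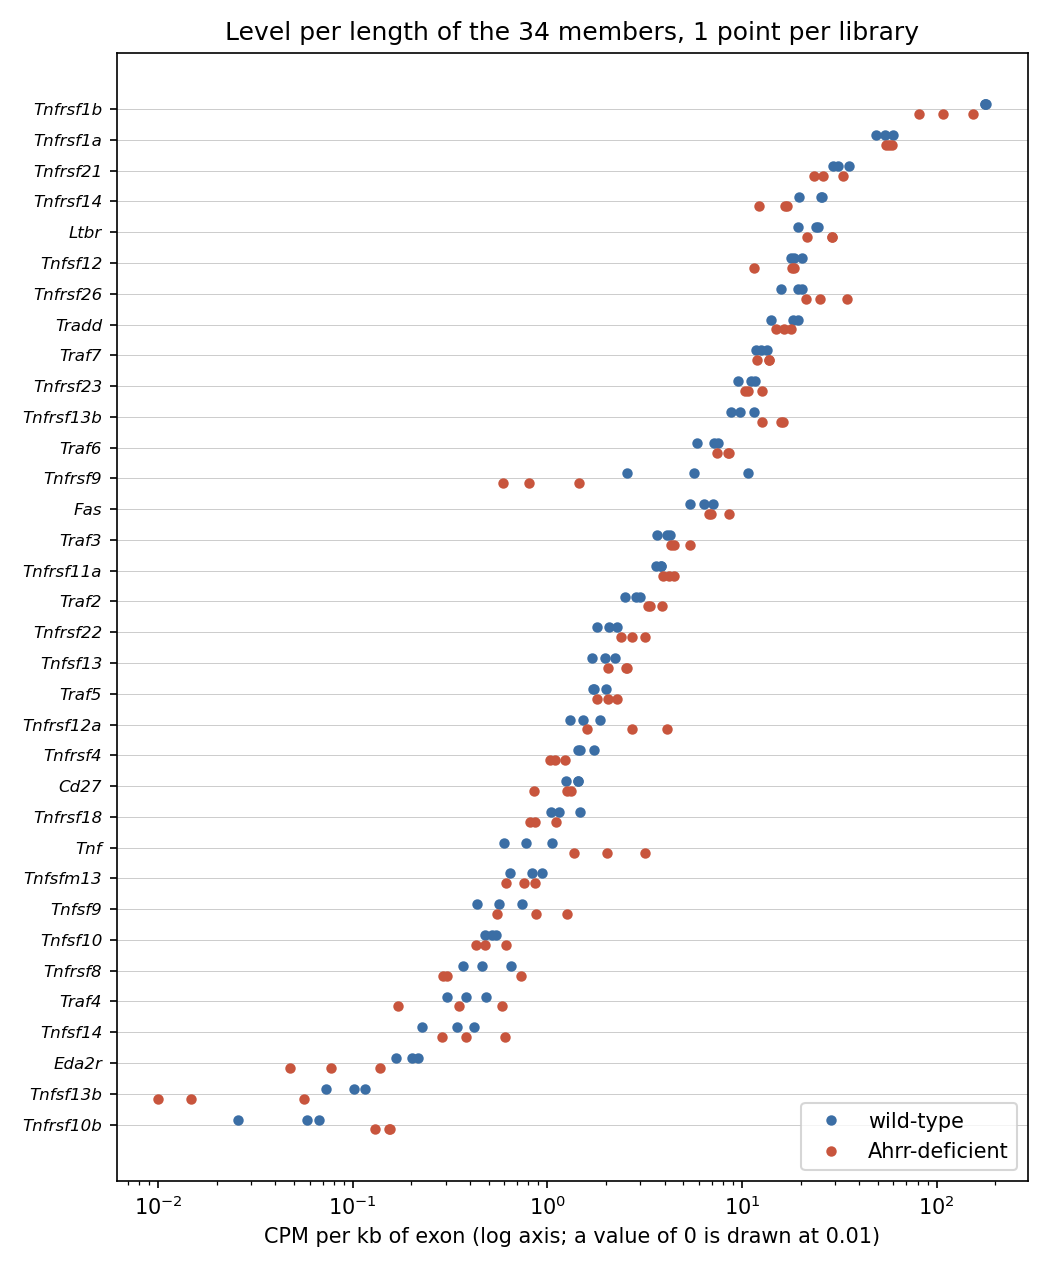
Level of each of the 34 members in CPM per kilobase of exon (log axis), with 1 point per library, wild-type in blue and Ahrr-deficient in red, ordered by the wild-type mean. Tnfrsf1b is highest in both groups, at a mean of 179 and 114 CPM per kb, and Tnfrsf10b, Tnfsf13b and Eda2r are lowest.

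The comparison of the genotypes asked which family members differ when the AhR repressor is missing. Of the 34 members, 29 had enough reads to be tested, and 5 of these differed at an edgeR adjusted p under 0.05, against 19.6% of all 11408 tested genes. Tnf and Tnfrsf13b were higher in Ahrr-deficient cells (background 9.62%), and Tnfrsf9, Tnfrsf14 and Tnfrsf1b were lower (background 9.95%). The members' share, 17.2%, is close to the background. At an unadjusted p under 0.05 there were 10 members, against 4087 of all tested genes. The median log2 fold change was -0.0033 over the members and 0.0076 over all tested genes. The median of its size was 0.26 and 0.22. The groups did not overlap for 11 of the 29, against 36.6% of tested genes. Calls fell among the TRAF-binding receptors (4 of 11 tested) and the ligands (1 of 5), with 0 of 3 death domain receptors, 0 of 3 decoy receptors and 0 of 7 adaptors. At an unadjusted p under 0.05 the last 3 roles had 1 member each (Tnfrsf21, Tnfrsf26 and Traf2), DESeq2 and limma-voom called none of them, edgeR with no filter on low counts called Tnfrsf21 (-0.30, adjusted p 0.0448) and Tnfrsf26 (0.49, adjusted p 1.81e-04), and these differences between roles were not tested.

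**Figure D2:**
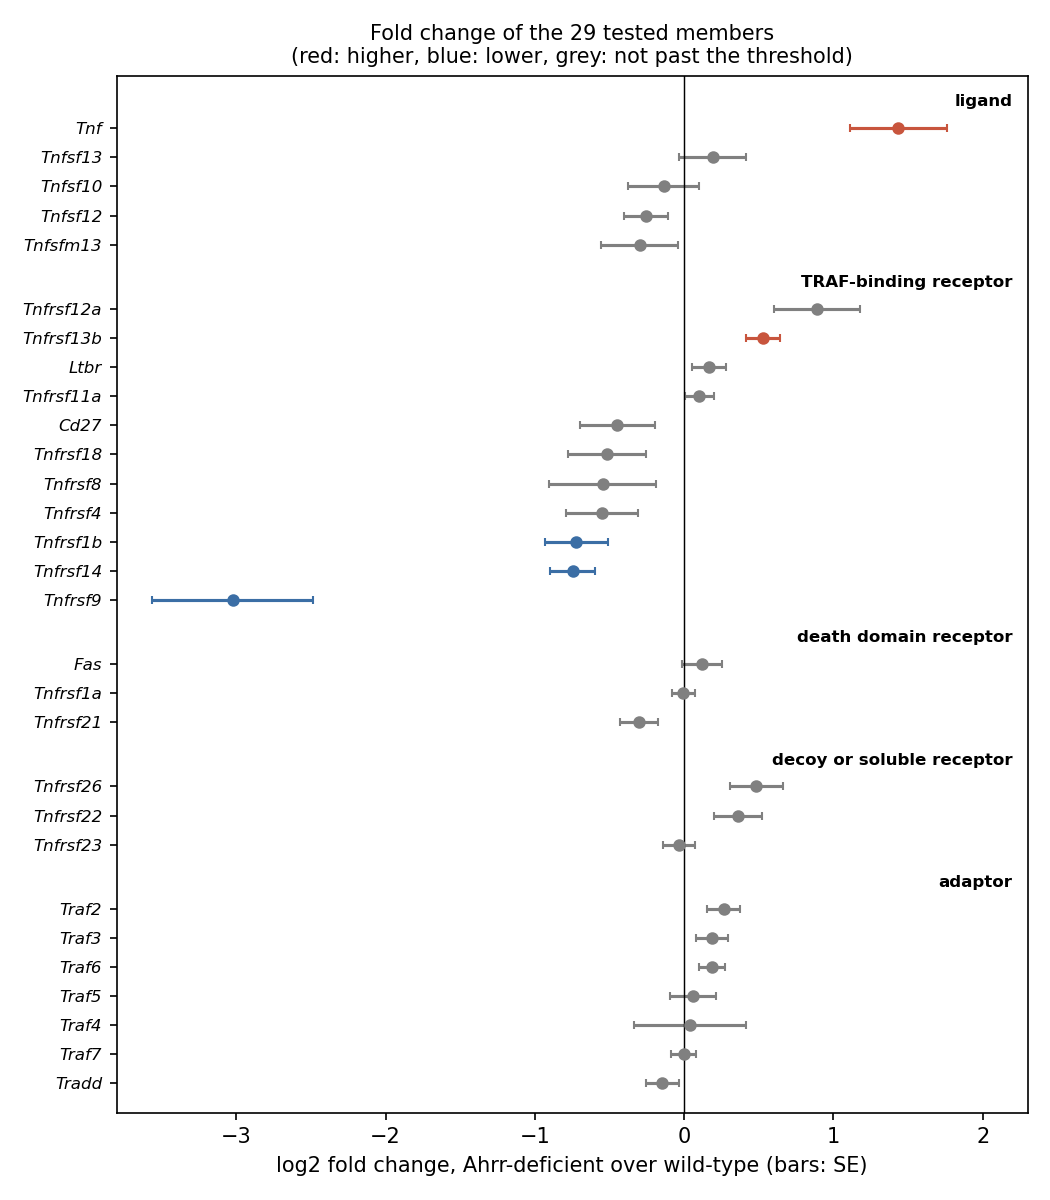
Log2 fold change of Ahrr-deficient over wild-type libraries (points, with SE as bars) for the 29 tested members, grouped by role. Tnfrsf9 lies farthest from 0, at -3.02, and the 7 adaptors lie between -0.15 and 0.26.

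Among the ligands, Tnf rose. Its counts in replicates 1, 2 and 3 were 38, 8 and 7 in the wild-type and 8, 216 and 33 in the Ahrr-deficient group, which is 1.73, 1.27 and 0.981 CPM against 2.25, 5.18 and 3.34 CPM. Every Ahrr-deficient library was above every wild-type library, and Ahrr-deficient replicate 1 was the lowest of its group. The log2 fold change came to 1.43 (SE 0.33, edgeR adjusted p 0.0181), a 2.701-fold rise at a level of few counts. The call was lost without wild-type replicate 1 (log2 fold change 1.74, adjusted p 0.0582), 2 (1.41, 0.0602) or 3 (1.26, 0.0622), without Ahrr-deficient replicate 2 (0.98, 0.120), and with the replicate block (1.31, 0.0546). Tnf passed in 11 of the 16 alternatives that tested it, with adjusted p from 5.12e-05 to 0.120. After thinning to the smallest total it had too few reads to test.

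The other tested ligands did not pass the threshold. Tnfsf12, the TWEAK gene, had 28.2, 27.1 and 30.7 CPM in wild-type replicates against 17.4, 27.3 and 28.1 CPM in Ahrr-deficient ones. Only Ahrr-deficient replicate 1 was clearly low. Tnfsf10, which encodes TRAIL, an inducer of cell death, was at 2.705 ± 0.170 and 2.67 ± 0.51 CPM (SD, n = 3). Tnfsf13, which encodes APRIL, a B cell survival factor, was at 3.22 ± 0.44 and 3.91 ± 0.48 CPM. Tnfsfm13, the readthrough of Tnfsf12 and Tnfsf13, lay between 1.43 and 2.10 CPM in wild-type and between 1.37 and 1.92 CPM in Ahrr-deficient cells. It shares 983 exon bases with Tnfsf13 and 731 with Tnfsf12, so the split of reads among these 3 genes is uncertain.

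Of the TRAF-binding receptors, Tnfrsf9 fell most. It encodes CD137, a costimulatory receptor best known from activated T cells. Its gene lies on chromosome 4 from 150914562 to 150946102 (GENCODE M21, GRCm38). Wild-type replicates 1, 2 and 3 held 15.5, 29.4 and 7.01 CPM, and Ahrr-deficient replicates 3.94, 2.18 and 1.62 CPM. The wild-type libraries spread widely, and all lay above the Ahrr-deficient ones. The fall was 8.12-fold (log2 fold change -3.02, SE 0.54, edgeR adjusted p 0.00736) and passed the threshold in all 17 alternatives, which moved it between -3.40 and -2.43. Of the 5 listed T cell markers only Lck was among the genes analysed, at no more than 0.744 CPM. Il7r, from the NK cell and ILC list, had 48.6, 75.9 and 34.5 CPM in wild-type replicates against 38.8, 32.2 and 17.4 CPM in Ahrr-deficient ones (log2 fold change -0.97, edgeR adjusted p 0.0803), with replicate 2 highest and replicate 3 lowest among the wild-type libraries, as for Tnfrsf9. Klrb1c, the only other gene of that list among those analysed, had 0.0456, 0 and 0 CPM in wild-type replicates against 0, 0.192 and 0.101 CPM in Ahrr-deficient ones. The part of such cells in the fall of Tnfrsf9 was not tested. Its ligand gene Tnfsf9 had 16, 6 and 4 counts in wild-type and 4, 68 and 7 in Ahrr-deficient replicates (0.729, 0.952 and 0.560 against 1.12, 1.63 and 0.708 CPM), was not tested, and overlapped between the groups.

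Tnfrsf14 encodes HVEM, a receptor for LIGHT (Tnfsf14) and a ligand of the inhibitory receptor BTLA. It had 36.6, 28.3 and 37.0 CPM in wild-type replicates against 24.5, 17.7 and 24.1 CPM in Ahrr-deficient ones. The groups did not overlap, and replicate 2 was the lowest in both. The log2 fold change came to -0.75 (SE 0.15, edgeR adjusted p 0.0110), a 1.68-fold fall. The call held in 16 of 17 alternatives, with adjusted p from 8.62e-07 to 0.0590, and was lost without wild-type replicate 1 (-0.69, 0.0590). Its ligand gene Tnfsf14 had 17, 4 and 3 counts in wild-type and 4, 22 and 7 in Ahrr-deficient replicates and was not tested.

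Tnfrsf1b, the TNFR2 gene and the most abundant member, had nearly equal levels in wild-type replicates 1, 2 and 3, at 681, 680 and 686 CPM. The Ahrr-deficient replicates had 585, 309 and 414 CPM, all lower and far apart from each other. The log2 fold change came to -0.72 (SE 0.21, edgeR adjusted p 0.0424), a 1.65-fold fall close to the threshold. It passed in 10 of 17 alternatives, with adjusted p from 1.12e-06 to 0.128. Without Ahrr-deficient replicate 1 the fall was larger (-1.01, adjusted p 0.00144). The call was lost without wild-type replicate 1 (-0.74, 0.113), 2 (-0.67, 0.115) or 3 (-0.76, 0.0875), without Ahrr-deficient replicate 2 (-0.52, 0.0916) or 3 (-0.69, 0.128), and with offsets for GC content alone (-0.63, 0.0890) or with the replicate block (-0.69, 0.0739).

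The other TNF receptor gene, Tnfrsf1a, had 154, 127 and 141 CPM in wild-type replicates against 142, 147 and 152 CPM in Ahrr-deficient ones. The groups overlapped, and the log2 fold change came to -0.01 (SE 0.08, edgeR adjusted p 0.967). The ratio of Tnfrsf1b to Tnfrsf1a reads within a library, which does not depend on scaling, was 4.41, 5.37 and 4.88 in wild-type and 4.12, 2.10 and 2.71 in Ahrr-deficient replicates. Its mean was 4.89 ± 0.48 and 2.98 ± 1.04 (SD, n = 3), with no overlap (two-sided exact permutation p 0.1, the smallest that 3 against 3 libraries allow). Per exon length the ratio was 3.32 ± 0.32 and 2.02 ± 0.70. Without Ahrr-deficient replicate 1 the Ahrr-deficient mean was 2.41. Tnfrsf1b supplied 53.6%, 56.2% and 54.4% of the reads of all 19 receptor members in wild-type and 50.3%, 34.003% and 41.4% in Ahrr-deficient replicates. The summed receptor level was 1269, 1210 and 1262 CPM against 1163, 909 and 998 CPM, lower in each Ahrr-deficient library. This sum includes Tnfrsf1b, whose share was also lower in each Ahrr-deficient library, so the sum does not show a fall of the other receptors. Those were not summed apart from it.

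**Figure D3:**
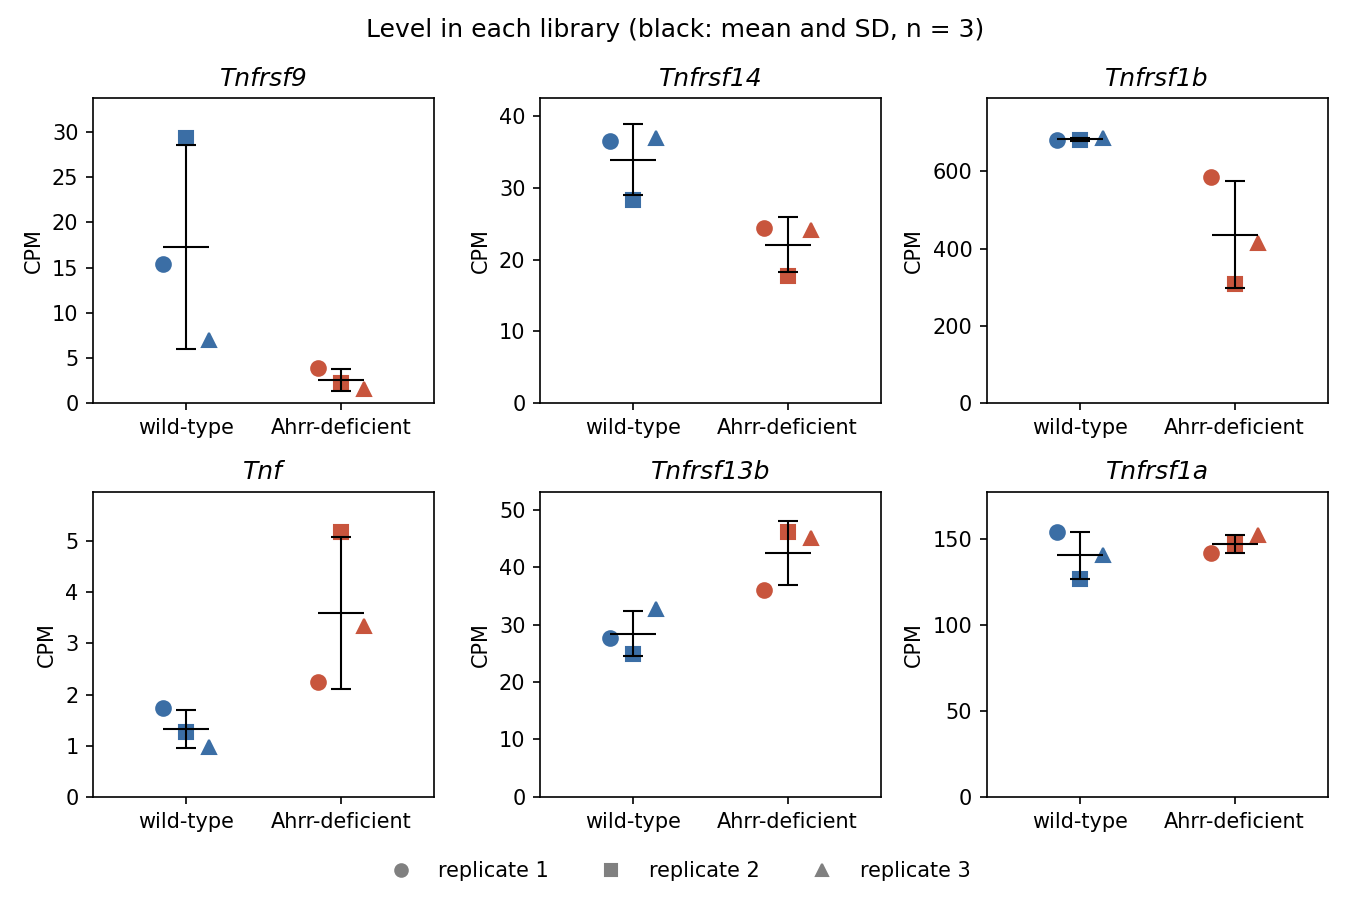
Level in each library (CPM, linear axes from 0) of the 5 members past the threshold and of Tnfrsf1a, with the mean and SD in black (n = 3). The 2 groups are apart for the 5 and overlap for Tnfrsf1a, and wild-type Tnfrsf1b lies between 680 and 686 CPM.

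Tnfrsf13b rose. It encodes TACI, a receptor for BAFF and APRIL best known from B cells, of which 0 of 5 listed markers were among the genes analysed. The gene had 27.7, 24.9 and 32.6 CPM in wild-type replicates against 36.0, 46.2 and 45.1 CPM in Ahrr-deficient ones. The groups did not overlap, and the log2 fold change came to 0.53 (SE 0.11, edgeR adjusted p 0.0151), a 1.44-fold rise. It passed in 13 of 17 alternatives, with adjusted p from 3.86e-04 to 0.0865, and was lost without wild-type replicate 1 (0.49, 0.0865) or 2 (0.50, 0.0608) and without Ahrr-deficient replicate 2 (0.47, 0.0570) or 3 (0.48, 0.0598). Of its ligands, Tnfsf13 is given above, and Tnfsf13b, the BAFF gene, had 11, 5 and 5 counts in wild-type and 0, 16 and 1 in Ahrr-deficient replicates, too few to test.

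The remaining TRAF-binding receptors did not pass the edgeR threshold with all libraries. Tnfrsf12a, the TWEAK receptor Fn14, had 3.60, 2.54 and 2.94 CPM in wild-type replicates against 3.09, 7.94 and 5.26 CPM in Ahrr-deficient ones. Ahrr-deficient replicate 1 lay within the wild-type range, and the log2 fold change came to 0.89 (SE 0.29, edgeR adjusted p 0.0579). It passed in 5 of 17 alternatives, among them limma-voom (0.97, adjusted p 0.0387) and edgeR with no filter on low counts (0.88, adjusted p 0.00413). Tnfrsf11a, which encodes RANK, the receptor of osteoclast formation, was at 22.5 ± 0.7 and 25.3 ± 1.6 CPM (SD, n = 3). Ltbr was at 53.3 ± 6.6 and 62.3 ± 9.9 CPM. The 4 receptors of lymphocyte costimulation had few reads: Tnfrsf4 (OX40) at 2.12 ± 0.23 and 1.53 ± 0.14 CPM, Tnfrsf18 (GITR) at 1.86 ± 0.34 and 1.42 ± 0.24, Tnfrsf8 (CD30) at 1.70 ± 0.49 and 1.53 ± 0.86, and Cd27 at 3.20 ± 0.25 and 2.67 ± 0.59. Their adjusted p-values from edgeR were between 0.135 and 0.302.

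The death domain receptors are those that can start apoptosis. Tnfrsf1a is given above, and Tnfrsf10b had too few reads to test. The others were Tnfrsf21, with 128, 120 and 146 CPM in wild-type replicates against 135, 96.2 and 107 CPM in Ahrr-deficient ones (log2 fold change -0.30, SE 0.13, edgeR adjusted p 0.126), and Fas, at 13.0 ± 1.8 and 15.3 ± 2.1 CPM (SD, n = 3). Both Tnfrsf21 and Fas overlapped between the groups. Tnfrsf22 and Tnfrsf23 are decoy receptors that bind TRAIL without a death domain. They were at 8.64 ± 1.03 and 42.8 ± 4.3 CPM in wild-type against 11.7 ± 1.6 and 44.6 ± 5.0 CPM in Ahrr-deficient cells. Their neighbour Tnfrsf26 had 65.2, 62.7 and 51.3 CPM in wild-type replicates against 68.3, 112 and 81.0 CPM in Ahrr-deficient ones, without overlap but short of the threshold (log2 fold change 0.48, SE 0.18, edgeR adjusted p 0.0830). These 3 genes lie within 0.0782 Mb of chromosome 7 and resemble each other, so reads could be split between them.

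The adaptors carry the signal inside the cell. Traf2, which binds TNFR2 and TRADD, was at 14.2 ± 1.2 CPM in wild-type and 18.0 ± 1.7 CPM in Ahrr-deficient cells, with no overlap (log2 fold change 0.26, SE 0.11, edgeR adjusted p 0.125). Traf3, a brake on the noncanonical NF-kB pathway, was at 29.6 ± 2.4 and 34.9 ± 4.4 CPM, also without overlap. Traf6, which serves Toll-like and IL-1 receptors as well as RANK, was at 54.2 ± 6.7 and 64.5 ± 5.2 CPM. Traf7 (73.9 ± 4.8 and 77.4 ± 5.9), Tradd (32.1 ± 5.2 and 30.5 ± 2.7), Traf5 (8.28 ± 0.72 and 9.30 ± 1.11) and Traf4 (1.28 ± 0.29 and 1.21 ± 0.68 CPM) overlapped between the groups. Exons of Traf5, Traf7 and Cd27 are shared on the same strand with Mir3473c, Rab26 and Mir8113 over 65, 267 and 129 bases, and as strand use in counting is not stated, the counts of these members, and of those with antisense neighbours (Tnfsf9, Tnfrsf18, Tnfrsf23 and Tnfrsf26), are uncertain.

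The other 5 members had too few reads to test, with 38 to 105 counts over the 6 libraries. Beside Tnfsf9, Tnfsf14 and Tnfsf13b they were Eda2r, a receptor of ectodysplasin, with 26, 8 and 7 counts in wild-type and 1, 19 and 8 in Ahrr-deficient replicates, and Tnfrsf10b, the mouse death receptor of TRAIL, with 8, 2 and 1 against 3, 35 and 7 counts. In CPM Eda2r and Tnfsf13b were lower, and Tnfrsf10b higher, in every Ahrr-deficient library. Of the 30 counts of these 5 genes, 7 were at or under the floor of 3, and no fold is given.

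Position along the chromosomes was not part of the rule. A group of 6 tested members, all TRAF-binding receptors, lie within 10.8 Mb of chromosome 4 in the order Tnfrsf1b, Tnfrsf8, Tnfrsf9, Tnfrsf14, Tnfrsf4 and Tnfrsf18. All 6 had negative log2 fold changes, -0.72, -0.55, -3.02, -0.75, -0.55 and -0.52 in that order, with a median of -0.64. These signs held in each alternative in which the genes were tested. The 3 members called lower, already counted above, are all among these 6, and 9.95% of all tested genes were called lower. The 101 other tested genes of the same span had a median log2 fold change of -0.02, with 55 negative and 46 positive values. Of these, 13 (12.9%) were called lower and 3 higher. The members on chromosome 6 (Cd27, Ltbr and Tnfrsf1a) and on chromosome 7 (Tnfrsf26, Tnfrsf22 and Tnfrsf23) had values of both signs and 0 calls. Those on chromosomes 11 (5 tested) and 17 (4 tested) also had values of both signs, with 1 member called higher on each. The 2 tested members on chromosome 1 and the 2 on chromosome 2 were all positive, with 0 calls. The chromosome 4 grouping was chosen after the values were seen and carries no test.

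**Figure D4:**
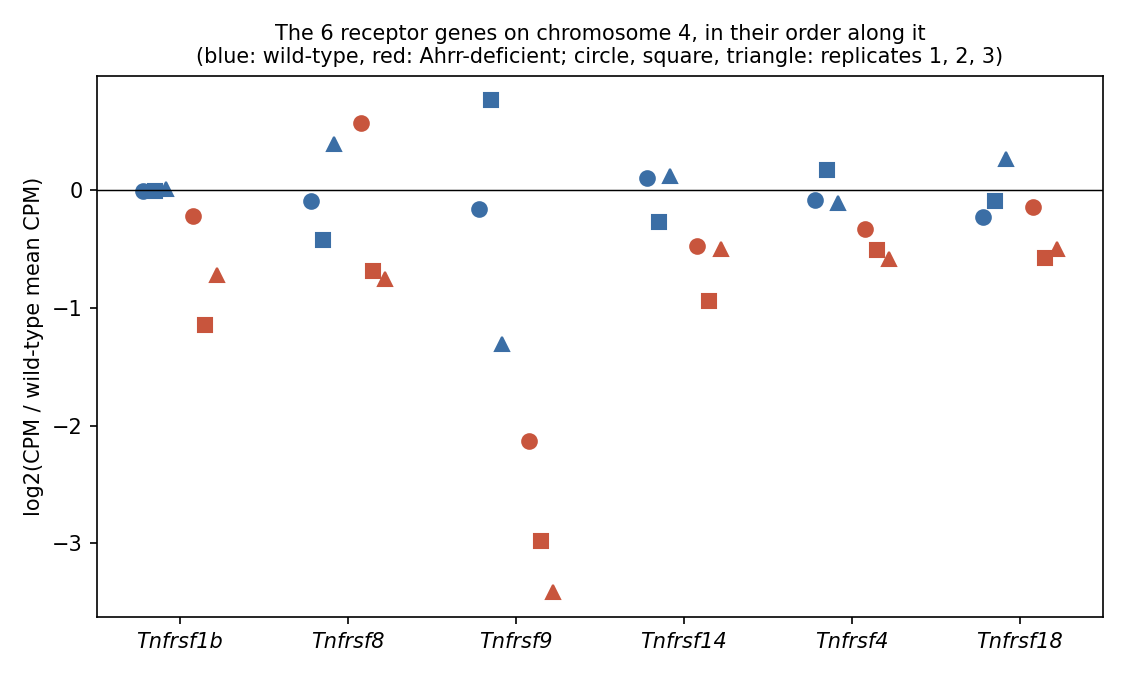
Level of the 6 receptor genes of chromosome 4 in each library as log2 of CPM over the wild-type mean, in their order along the chromosome. The groups are apart for Tnfrsf1b, Tnfrsf9, Tnfrsf14 and Tnfrsf4 and overlap for Tnfrsf8 and Tnfrsf18. Over all tested genes, the groups are apart for 36.6%.

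Downstream of the receptors, 36 genes of the receptor complexes and kinases were listed, of which 35 were tested, and 5 were lower and 1 higher in Ahrr-deficient cells, again close to the background of 19.6%. The median log2 fold change of the list was -0.05. Over all downstream lists the count went from 6 to 14 without Ahrr-deficient replicate 1, and to 3 without wild-type replicate 1 or 3, where 32.6%, 6.07% and 9.35% of all tested genes passed. Tnfaip3, which encodes the ubiquitin-editing enzyme A20, a feedback inhibitor of TNF signalling, had 49.95, 57.3 and 40.2 CPM in wild-type replicates against 25.6, 30.0 and 24.2 CPM in Ahrr-deficient ones. The groups did not overlap (log2 fold change -0.95, SE 0.17, edgeR adjusted p 0.00716), and the call held in all 17 alternatives, as did that of Tifa, a TRAF6-activating adaptor (-0.45, SE 0.08, adjusted p 0.00875). Tnfaip3 fell while Tnf, whose call held in 11 of 16 alternatives, rose, and a link between them was not tested.

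Ikbke, an IkB kinase relative, had 260, 230 and 305 CPM in wild-type replicates against 208, 137 and 173 CPM in Ahrr-deficient ones (log2 fold change -0.69, SE 0.15, edgeR adjusted p 0.0164). It was lost without wild-type replicate 1 (-0.72, 0.0539) or 3 (-0.62, 0.0574) or Ahrr-deficient replicate 3 (-0.70, 0.0573; range over alternatives 4.33e-08 to 0.0574). Trafd1, a negative regulator with a TRAF-type zinc finger, fell by 0.62 on the log2 scale (SE 0.13, adjusted p 0.0123), and was lost without wild-type replicate 1 (-0.63, 0.0517) or Ahrr-deficient replicate 3 (-0.60, 0.0519; range 2.59e-07 to 0.0519). Rnf31, a subunit of the linear ubiquitin ligase, had 36.6, 31.6 and 37.5 CPM in wild-type replicates against 29.8, 28.8 and 30.6 CPM in Ahrr-deficient ones (-0.33, SE 0.09, adjusted p 0.0342), and passed in only 8 of 17 alternatives, with 1 of 6 when a library was left out (without Ahrr-deficient replicate 1) and log2 values there between -0.36 and -0.29. Mlkl, the effector of necroptosis, rose from 3.60, 1.90 and 2.66 to 6.47, 6.96 and 4.75 CPM (1.00, SE 0.24, adjusted p 0.0228). It was lost without wild-type replicate 2 (0.88, 0.0717) or 3 (0.93, 0.0764), without Ahrr-deficient replicate 2 (0.81, 0.129), and after thinning to the depth of the smallest library (0.76, 0.143; range 9.40e-04 to 0.143).

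The genes that shed ligands and receptors gave 0 calls among 5 tested of 7 listed, and 2 had an unadjusted p under 0.05. DESeq2 and limma-voom called 1 gene (Rhbdf2) and 1 gene (Sppl2b), respectively. Among them Adam17, the TNF-converting protease, was at 181 ± 7.4 CPM in wild-type and 194 ± 11 CPM in Ahrr-deficient cells. Of 7 further ligands and receptors of the family whose symbols fall outside the rule, only the receptor gene Relt was tested, and its edgeR adjusted p was 0.146 (log2 fold change 0.45).

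Among the wild-type libraries replicate 2, which had the highest Tnfrsf9 level, stood apart, with a chi-square per degree of freedom over genes of 175 and 70.0 against replicates 1 and 3, which differed from each other by 5.79. Pairs of Ahrr-deficient libraries gave 10.7 to 17.2. Without wild-type replicate 2 the log2 fold change of Tnfrsf9 was -2.43 (edgeR adjusted p 0.0169). Ahrr-deficient replicate 1 had the fewest counts and stood between the groups for several members. Without it 10 of 30 tested members passed the threshold, against 32.6% of all genes tested in that fit. The added members were Tnfrsf12a (log2 fold change 1.03, edgeR adjusted p 0.00946), Tnfrsf26 (0.60, 0.02004), Ltbr (0.26, 0.0409), Tnfrsf21 (-0.46, 0.00318) and Eda2r, which had too few reads in the fit of all libraries. Each of the other omissions lowered the count, and the share of all tested genes fell as well. It was 1 member without wild-type replicate 1 (6.07% of all genes), 2 without wild-type replicate 2 (8.15%), 3 without wild-type replicate 3 (9.35%), 2 without Ahrr-deficient replicate 2 (8.31%) and 3 without Ahrr-deficient replicate 3 (10.3%). Offsets for GC content gave 4 higher and 2 lower members (17.7% of all genes), against 2 and 3, with Ltbr (0.36) and Tnfrsf12a (1.04) added and Tnfrsf1b lost.

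**Figure D5:**
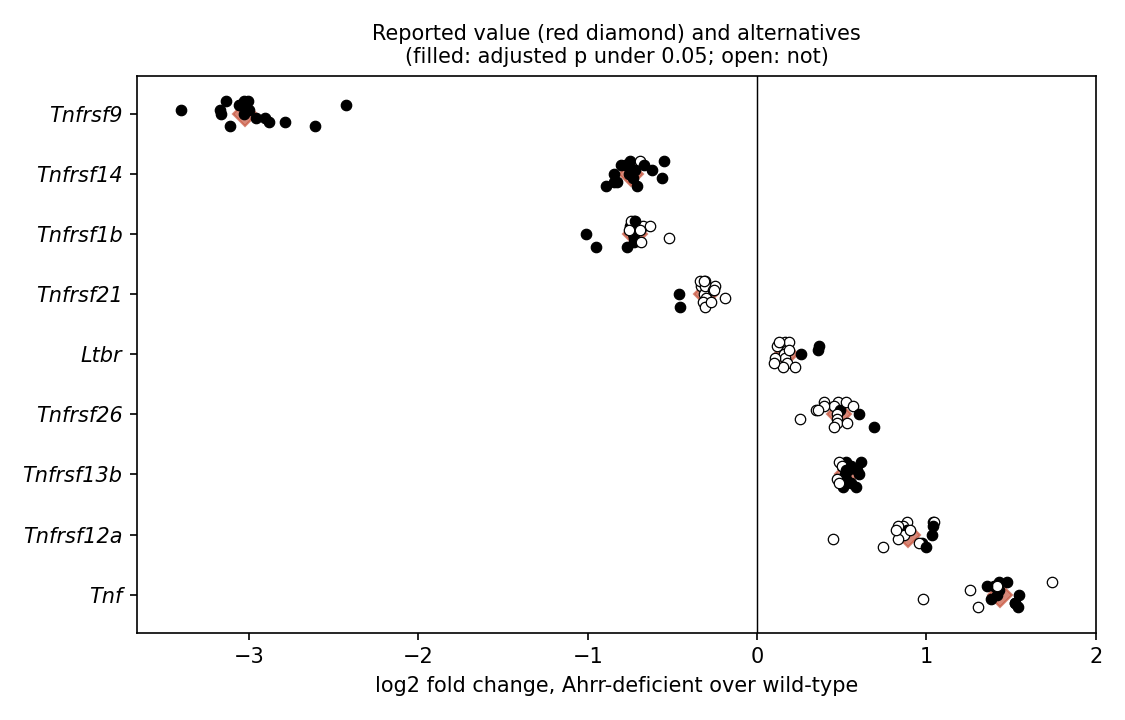
Log2 fold change of 9 members in the reported fit (red diamonds) and in each alternative (circles, filled where the adjusted p was under 0.05). Tnfrsf9 is filled in each of its 17 alternatives, while Tnfrsf1b and Tnf have both filled and open circles.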

How the data were processed

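Polyadenylated RNA of 6 libraries (100 ng RNA, 75 bp single-end reads, per the labels' protocols) had been processed with CASAVA 1.8.2, fastp 0.20.0, STAR 2.7.10b, SAMtools 1.16.1, R 4.3.1 and DESeq2 1.40.2 on mm10, per the submitters' processing notes. The counting program, its annotation and its use of strand are not given in the sources used here. The authors deposited raw counts for 53465 features without identifiers, and an annotated table of 16111 genes whose values are a signal scaled by size factors. Multiplied by median-of-ratios size factors, 100% of the annotated values came out whole (tolerance 0.001), and all 16111 rows equalled raw rows, which gave the raw counts their identifiers. Rows without identifier, 0.0232% to 0.0511% of counts, stayed out of the tests that filtered low counts. The fit with no filter on low counts included such rows and tested 24416 rows.

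The count test, edgeR 4.0.16 quasi-likelihood with TMM factors, filterByExpr and genotype as the only term, tested 11408 genes, called 2232 at a Benjamini-Hochberg adjusted p under 0.05, and gave a biological coefficient of variation of 13.0%. CPM used total counts, which differed 11.7-fold. Floors cover counting error only, while the SDs and SEs also take in the spread between libraries. Exon lengths and positions are from GENCODE M21 (GRCm38), and promoters from RefSeq. The procedure was tested on simulated data. Alternatives used DESeq2 1.42.0, limma 3.58.1, other scalings and filters, a replicate block, and left-out libraries. Leaving out 2 libraries together, thinning, and GC offsets were chosen after seeing the data. Values are given per library for members past the threshold and their ligands or partner receptors, and the other members by summary. The members and gene lists were chosen with earlier results of these data known.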

Additional observations from a re-analysis of the deposited data

How the results depend on the processing

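All values of the 5 members past the threshold kept their direction, and 67 of 84 their side of the threshold. Of 394 values of the 24 other tested members, 352 kept both, 14 passed the threshold and 28, in 7 genes, changed sign. The count of genes past the threshold was 1390 with the replicate block, 1276 with the block and GC offsets, 1166 after thinning to the smallest total, and 694 to 3857 when 1 library was left out. Members past the threshold numbered 8 with no filter on low counts, 8 without wild-type replicate 2 and Ahrr-deficient replicate 1 together, 4 with the block, and 1 to 10 when 1 library was left out. Downstream genes past it numbered 11 with limma-voom, 10 without those 2 libraries, 6 with the block, and 3 to 14 when 1 library was left out. Same-numbered libraries had correlations of -0.169, 0.0714 and 0.129 in their deviations from the group means. Those of differently numbered libraries ran from -0.214 to 0.163. These values thus show no pairing by number, but with 3 libraries per group they cannot exclude it.

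The log2 fold change took the other sign in the following, with the cause not tested. For Tradd it was 0.020 (block and GC offsets). For Traf4 the values were -0.034 (DESeq2), -0.041 (limma-voom), -0.197 (block), -0.093 (block and GC offsets). For Traf5 the values were -0.079 (thinning), -0.069 (GC offsets), -0.061 (block and GC offsets). For Traf7 the values were 0.0015 (no filter), 0.0014 (limma-voom), 0.047 (2 libraries left out), 0.0096 (thinning), 0.071 (GC offsets), 0.071 (block and GC offsets). For Tnfrsf1a the values were 0.00087 (limma-voom), 0.026 (thinning), 0.117 (GC offsets), 0.123 (block and GC offsets). With 1 library left out it ran from -0.23 to 0.263 for Traf4, -0.015 to 0.176 for Traf5, -0.049 to 0.031 for Traf7, -0.045 to 0.047 for Tnfrsf1a, -0.129 to 0.018 for Tnfrsf23 and -0.308 to 0.081 for Tnfsf10. At this depth 5 members had too few reads to test.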

Other observations

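On the log2(CPM + 1) scale, Ahrr-deficient replicate 1 lay nearer to the wild-type mean than to the mean of the other Ahrr-deficient libraries for 18 of 29 tested members (62.1%) and for 47.0% of all tested genes. The reason was not tested, and this library has the fewest counts.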
